A study of Homo sapiens with 10 samples.

Results

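The genes described here are 50 components and regulators of mitosis and of the kinetochore, followed in 786-O cells after knockdown of ZHX2 or of p65. They were taken by name from a list that leaves out the kinesins other than CENPE. Of the 50, 48 were measured in both tables, out of 22499 named genes. BUB1B and CENPA share a probe set with a neighbouring gene in one platform's annotation. They are given only as the ZHX2 table's own annotation names them, and no value of theirs is given from the p65 table. A gene was matched by its current symbol or an older alias, and where several probe sets named it, the one with the highest mean signal was used.

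786-O is an established human clear-cell renal carcinoma line that lacks functional VHL. All 10 arrays came from 786-O cells infected with lentivirus and then selected with puromycin at 2 ug/ml, so every control carried a virus and the drug too. The ZHX2 table holds cells with ZHX2 shRNA 44, cells with ZHX2 shRNA 45 and cells with a scrambled shRNA (Scr), with 2 arrays in each group. The p65 table holds cells with p65 shRNA and cells with control shRNA (Ctrl), again with 2 arrays in each group. ZHX2 is a zinc-finger and homeobox protein of the nucleus, and p65, encoded by RELA, is the transactivating subunit of NF-kappaB. p65 was targeted with one shRNA construct as far as the labels say, and all cells are of 1 line, which limits both groups as models. How the control shRNA relates to the scrambled shRNA was not stated, and no level is compared between the tables. The labels do not say whether the 2 arrays of a group came from separate cultures, and any p-value here reflects only how far these arrays differ, which may be technical.

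The targeted genes were low where the labels say so. ZHX2 had log2 signals of 9.35 and 9.38 on the hairpin 44 arrays and 8.93 and 9.02 on the hairpin 45 arrays, against 10.58 and 10.43 on the scrambled arrays, a log2 change of -1.33 (SE 0.0746, adjusted p = 0.00104). RELA had log2 signals of 5.04 and 5.28 on the p65 shRNA arrays, against 7.64 and 7.67 on the control shRNA arrays, a log2 change of -2.50 (SE 0.178, adjusted p = 0.0735, 0.00137 with an intensity trend). In neither case did the arrays of the groups overlap. In the other table, RELA was 0.44 higher on the log2 scale with the ZHX2 hairpins (adjusted p = 0.0112), a call that was lost without scrambled array 2 (adjusted p = 0.0553). ZHX2 differed by -0.09 with p65 shRNA (adjusted p = 0.861). Arrays of 1 group correlated at 0.993 to 0.995 over the named genes in the ZHX2 table and at 0.985 to 0.987 in the p65 table. The SD of the difference between both arrays of a group was 0.197 to 0.238 in the ZHX2 table and 0.40 to 0.426 in the p65 table. All 7 measured renal epithelial markers in the ZHX2 table had a mean signal over the median gene's, as had 6 of 7 in the p65 table. None of 5 leukocyte and none of 4 endothelial markers did in either table, and 1 and 2 of 4 fibroblast markers did in the ZHX2 and the p65 table. With the ZHX2 hairpins PAX8, PAX2 and CDH6 fell and KRT18 rose among the renal epithelial markers, and LUM fell among the fibroblast markers. None of the leukocyte and endothelial markers was called in the ZHX2 table, and no marker in the p65 table, also with an intensity trend. The part of these shifts in the members' changes was not tested.

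Entry into mitosis is driven by CDK1 bound to cyclin A or B, which Polo-like and Aurora kinases help to switch on. Kinetochores, built on centromeric chromatin, then attach chromosomes to spindle microtubules, while the spindle assembly checkpoint holds back the anaphase-promoting complex until every kinetochore is attached. Most of these genes are transcribed as one programme late in the cell cycle, under the MuvB complex with B-MYB and FOXM1, through promoters that carry a cell cycle genes homology region (CHR) and CCAAT boxes bound by NF-Y. In bulk RNA, a change in the number of dividing cells and a change in RNA per cell cannot be told apart.

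The promoters of the members with the largest and the smallest changes over both ZHX2 hairpins are shown because these genes are known to be driven as a group. RefSeq windows of GRCh38.p14, from 250 bases before to 50 bases after the annotated start, were found for 42 of the 50 members. TTK, AURKA, TPX2, BIRC5, BUB3, RACGAP1, UBE2C and FOXM1 had no window. Each sequence reads 5′ to 3′ along the gene's strand. Capitals mark TTTGAA or TTCGAA (CHR), CCAAT (NF-Y box) and GGCGGGA (E2F), or the reverse complement of each. The first 3 genes changed most and the last 3 least.
MAD2L1 promoter: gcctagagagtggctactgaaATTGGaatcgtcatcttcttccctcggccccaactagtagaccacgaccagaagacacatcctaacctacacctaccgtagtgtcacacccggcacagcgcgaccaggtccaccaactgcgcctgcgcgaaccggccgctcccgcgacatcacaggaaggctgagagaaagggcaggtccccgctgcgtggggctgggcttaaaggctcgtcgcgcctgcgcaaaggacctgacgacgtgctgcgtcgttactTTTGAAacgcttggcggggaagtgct
NEK2 promoter: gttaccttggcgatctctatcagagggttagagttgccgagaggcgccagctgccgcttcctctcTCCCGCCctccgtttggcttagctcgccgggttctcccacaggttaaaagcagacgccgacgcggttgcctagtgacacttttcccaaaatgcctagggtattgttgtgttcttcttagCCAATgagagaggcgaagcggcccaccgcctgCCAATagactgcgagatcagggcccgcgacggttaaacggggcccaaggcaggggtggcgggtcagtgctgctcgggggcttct
CDCA8 promoter: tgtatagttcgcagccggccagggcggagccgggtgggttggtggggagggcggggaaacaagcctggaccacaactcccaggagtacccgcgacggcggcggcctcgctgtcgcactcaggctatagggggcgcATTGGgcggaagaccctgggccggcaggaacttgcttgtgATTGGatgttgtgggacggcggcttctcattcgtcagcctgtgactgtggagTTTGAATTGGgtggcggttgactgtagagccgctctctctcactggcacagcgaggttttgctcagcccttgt
CDC25B promoter: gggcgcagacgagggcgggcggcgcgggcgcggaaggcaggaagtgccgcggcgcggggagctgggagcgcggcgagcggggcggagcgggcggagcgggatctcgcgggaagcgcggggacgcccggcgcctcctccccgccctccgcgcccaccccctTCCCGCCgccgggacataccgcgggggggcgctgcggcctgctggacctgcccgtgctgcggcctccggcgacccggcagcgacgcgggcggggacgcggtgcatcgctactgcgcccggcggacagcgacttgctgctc
TOP2A promoter: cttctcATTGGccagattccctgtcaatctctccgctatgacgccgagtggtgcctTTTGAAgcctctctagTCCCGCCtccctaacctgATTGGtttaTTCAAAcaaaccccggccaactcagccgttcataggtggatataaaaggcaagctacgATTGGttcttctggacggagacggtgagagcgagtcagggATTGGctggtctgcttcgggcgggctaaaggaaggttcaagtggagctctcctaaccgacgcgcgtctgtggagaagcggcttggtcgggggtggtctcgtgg
ASPM promoter: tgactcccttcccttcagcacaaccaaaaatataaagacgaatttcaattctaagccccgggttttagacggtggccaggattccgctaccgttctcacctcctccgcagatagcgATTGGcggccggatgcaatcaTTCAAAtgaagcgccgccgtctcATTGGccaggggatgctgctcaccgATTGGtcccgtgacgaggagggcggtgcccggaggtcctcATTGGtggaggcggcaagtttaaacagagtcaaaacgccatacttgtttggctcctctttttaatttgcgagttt

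The MAD2L1 window lies at chr4:120066799-120067098 on the minus strand, NEK2's at chr1:211675572-211675871 on the minus strand and CDCA8's at chr1:37692266-37692565 on the plus strand. CDC25B's window, the first of 4 for that gene, lies at chr20:3786701-3787000 on the plus strand. TOP2A's lies at chr17:40417847-40418146 and ASPM's at chr1:197146620-197146919, both on the minus strand. MAD2L1 held 1 CHR, starting 25 bases into the transcript, and 1 CCAAT box, whereas NEK2 held 2 CCAAT boxes, 1 E2F motif and no CHR. In CDCA8 a CHR starting 23 bases before the start overlaps the last of 3 CCAAT boxes. TOP2A held 2 CHRs, 4 CCAAT boxes and 1 E2F motif, and ASPM 1 CHR and 4 CCAAT boxes. The printed window of CDC25B held 1 E2F motif alone, while another of its 4 windows held 1 CHR, 1 CCAAT box and 1 E2F motif.

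Counted on both strands over the 53 windows of the 42 members, a CHR stood in 34 (64.2%), against 13.7% of the 22199 windows of all protein-coding genes. A CCAAT box stood in 41 (77.4%), against 34.7% of protein-coding windows, and both motifs in 52.8%, against 5.48%. The E2F motif stood in 15 (28.3%), against 19.5%. In the 110 windows of the other mitotic genes described at the end, the shares were 33.6% for CHR, 45.5% for CCAAT and 38.2% for E2F. The 29 measured members with a CHR in a window had a median log2 change of 0.36 with the ZHX2 hairpins and -1.74 with p65 shRNA. The 11 without one had 0.32 and -1.67, and the ranges of both sets overlapped. In the same order, medians were 0.36 and -1.56 for the 34 with a CCAAT box, and 0.31 and -1.82 for the 6 without. For the E2F motif they were 0.36 and -1.84 in the 12 with it, and 0.35 and -1.56 in the 28 without. None of these differences was tested. These values describe letters in the windows and not bound sites.

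With ZHX2 knocked down, most mitotic genes were modestly higher and none was called lower. Over both hairpins against scrambled, 34 of the 48 measured members rose at an adjusted p under 0.05 in limma and 0 fell. Of all 22499 genes, 11.9% were called higher and 6.41% lower. The members' median log2 change was 0.36, a fold of 1.28, against a median of -0.00416 over all genes. Calls ran from 0.29 to 0.79 on the log2 scale, or 1.22-fold to 1.73-fold, so that 4 of the 34 (NEK2, MAD2L1, CDCA8 and RACGAP1) reached 1.5-fold. On 43 of 48 members all 4 hairpin arrays lay above both scrambled arrays, as they did for 21.9% of all genes. The overlapping members were CDC25B, CDC25C, NUF2, PTTG1 and NUSAP1. The members' median signal was 10.01 and 10.04 on the hairpin 44 arrays and 10.17 and 10.20 on the hairpin 45 arrays, against 9.78 and 9.72 on the scrambled arrays.

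Scrambled arrays 1 and 2 had medians of 6.19 and 6.22 over all probe sets. How often array 2 read lower was not counted over all genes. Among the members, scrambled array 2 read lower than scrambled array 1 for 43 of 48. Without it 9 members were called higher, with a median log2 change of 0.30, as were 4.63% of all genes. Without scrambled array 1, 32 members and 10.3% of all genes were called higher, and without 1 hairpin array, 16 to 20 members and 5.84% to 6.40% of all genes. The 9 calls that passed under each of the 6 omissions were BIRC5, CDC20, CDCA8, SPC25, NEK2, PLK1, MAD2L1, FOXM1 and SGO2. The remaining 25 were lost under 1 or more. How many of all genes kept a call under every omission was not counted. Leaving out an array leaves 1 in its group and fewer to estimate the spread. A call can then be lost while the change hardly moves, as for PRC1 at 0.28 to 0.31. Where limma let the variance follow signal intensity (an intensity trend), 42 members were called, against 17.3% of all genes.

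**Figure D1:**
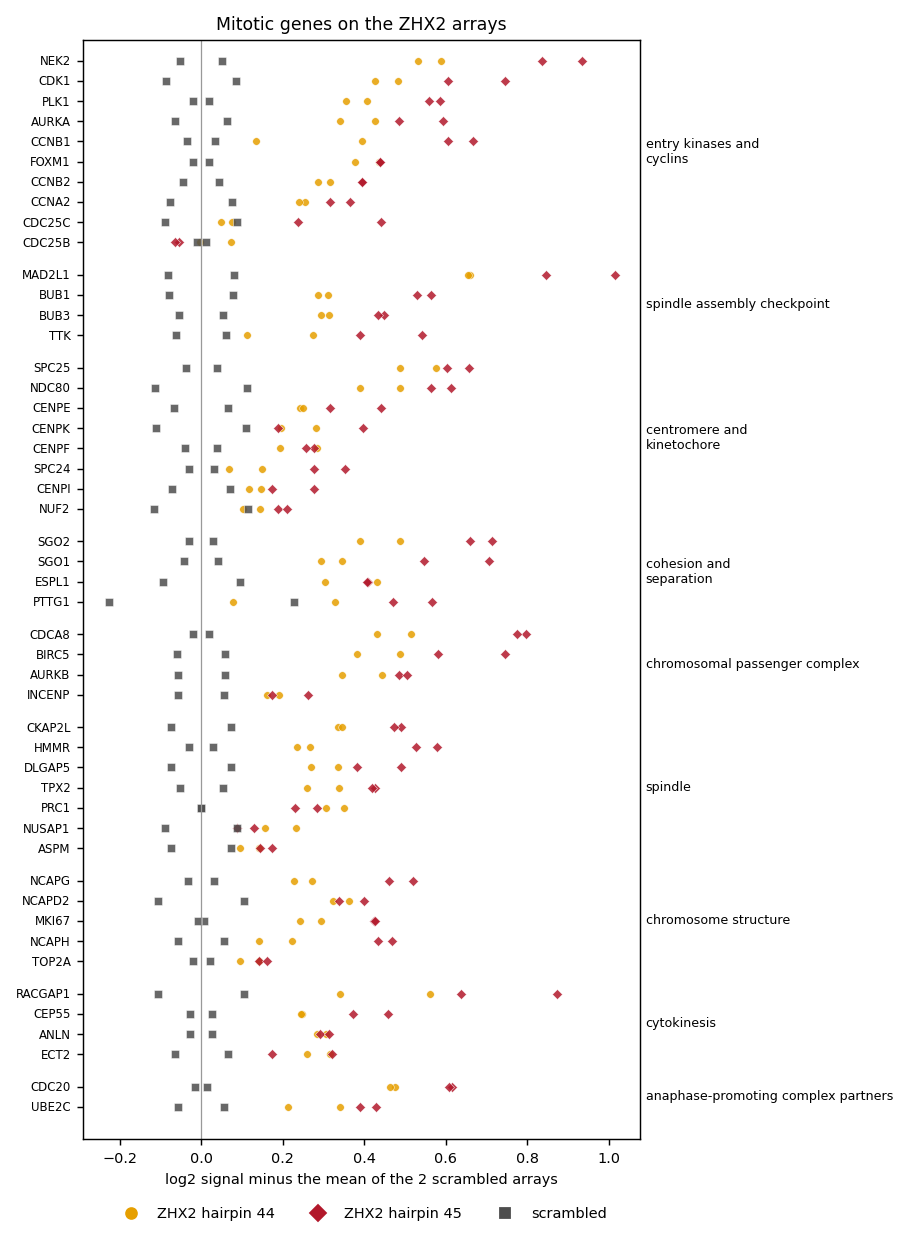
Log2 signal of each of the 48 measured members on each of the 6 ZHX2 arrays, minus the mean of the 2 scrambled arrays, grouped by role. Points stand for single arrays of hairpin 44, hairpin 45 and scrambled. In 43 of 48 members all 4 hairpin points lie to the right of both scrambled points.

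The share of all genes called higher, 11.9%, stands beside the count of each role below. Of the 10 entry kinases, cyclins and their activators, 8 rose (median log2 change 0.44). NEK2, a centrosomal kinase that helps the centrosomes part, had log2 signals of 8.94 and 8.99 on the hairpin 44 arrays and 9.24 and 9.34 on the hairpin 45 arrays, against 8.46 and 8.35 on the scrambled arrays. Both hairpin groups lay wholly above scrambled, and the change of 0.72 (SE 0.0712, adjusted p = 0.00334) amounted to 1.65-fold. CCNB1, the cyclin B1 that activates CDK1, gave 8.52 and 8.78 (hairpin 44) and 8.99 and 9.05 (hairpin 45), against 8.35 and 8.42 (scrambled). Its change was 0.45 (SE 0.0916, adjusted p = 0.023), with the hairpin 45 arrays above the hairpin 44 arrays, and the call was lost without either scrambled array (adjusted p = 0.0932 and 0.0871) and without either hairpin 45 array (0.062 and 0.0734). FOXM1, a transcription factor of this programme, stood at 10.19 and 10.25 in hairpin 44 cells and 10.25 and 10.25 in hairpin 45 cells, against 9.83 and 9.79 in scrambled cells. The spread within each FOXM1 group was small beside its change of 0.42 (SE 0.0624, adjusted p = 0.00939).

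CDK1 itself changed by 0.56, PLK1, the Polo-like kinase of mitotic entry, by 0.48, and AURKA, the spindle pole Aurora kinase, by 0.46, all called higher. Cyclins CCNA2 and CCNB2 were called at 0.29 and 0.35. Of the CDC25 phosphatases, which remove the inhibitory phosphates from CDK1, the members CDC25B and CDC25C were not called. CDC25A, which is not a member, was called higher and is described with the other mitotic genes at the end. CDC25B, the one member with a change below 0, gave 10.44 and 10.37 (hairpin 44) and 10.31 and 10.30 (hairpin 45), against 10.38 and 10.36 (scrambled). The hairpin 44 arrays overlapped the scrambled ones, the hairpin 45 arrays lay below both, and the change was -0.01 (SE 0.063, adjusted p = 0.923) with a 95% interval of -0.166 to 0.143. CDC25C differed by 0.20 (adjusted p = 0.193).

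In the spindle assembly checkpoint 3 of 4 measured genes rose (median 0.40). MAD2L1, which binds and inhibits CDC20 at unattached kinetochores, had log2 signals of 8.03 and 8.03 on the hairpin 44 arrays and 8.22 and 8.39 on the hairpin 45 arrays, against 7.46 and 7.29 on the scrambled arrays. This was the largest change of any member, 0.79 (SE 0.084, adjusted p = 0.00397) or 1.73-fold, and no hairpin array approached the scrambled ones. BUB1 and BUB3, partners in checkpoint signalling at the kinetochore, changed by 0.42 and 0.37. TTK, the kinase that starts checkpoint signalling, stood at 9.04 and 9.21 in hairpin 44 cells and 9.32 and 9.47 in hairpin 45 cells, against 8.99 and 8.87 in scrambled cells. TTK missed the threshold at 0.33 (SE 0.0876, adjusted p = 0.0519), though its arrays did not overlap, and passed it with an intensity trend (adjusted p = 0.00373), with median-centred arrays (0.0379) and without dim probe sets (0.0223). BUB1B, the checkpoint kinase BUBR1, gave 9.56 and 9.60 (hairpin 44) and 9.59 and 9.55 (hairpin 45), against 9.37 and 9.32 (scrambled). On the table's own annotation it was called at 0.23 (SE 0.0622, adjusted p = 0.0458).

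Among centromere and kinetochore genes 3 of 8 rose, and the median log2 change was 0.26. SPC25, a subunit of the NDC80 complex that grips microtubules, had log2 signals of 8.37 and 8.46 on the hairpin 44 arrays and 8.49 and 8.54 on the hairpin 45 arrays, against 7.84 and 7.92 on the scrambled arrays. No array overlapped, with a change of 0.58 (SE 0.068, adjusted p = 0.0051), just under 1.5-fold. NUF2, a subunit of the same complex, gave 9.06 and 9.02 (hairpin 44) and 9.11 and 9.13 (hairpin 45), against 9.03 and 8.80 (scrambled). Here scrambled array 1 fell within the range of the hairpin 44 arrays, and the change of 0.16 (SE 0.0839, adjusted p = 0.252) had a 95% interval of -0.0445 to 0.367. The other NDC80 complex subunits were at 0.51 for NDC80, called higher, and 0.21 for SPC24, not called (adjusted p = 0.0863). CENPE, the kinetochore motor, was called at 0.31, a call lost under each of the 6 omissions of an array. CENPF, CENPI and CENPK, of the outer and inner kinetochore, were at 0.25, 0.18 and 0.27 and did not pass. CENPA, the histone H3 variant of centromeres, gave 9.21 and 9.26 (hairpin 44) and 9.13 and 9.27 (hairpin 45), against 9.21 and 8.94 (scrambled). Scrambled array 1 lay among the hairpin arrays, and the change was 0.14 (SE 0.0944, adjusted p = 0.343).

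Of the 4 cohesion and separation genes 3 rose (median 0.43). SGO2, a shugoshin that shields centromeric cohesin, stood at 8.75 and 8.85 in hairpin 44 cells and 9.07 and 9.02 in hairpin 45 cells, against 8.39 and 8.33 in scrambled cells. All hairpin arrays exceeded both scrambled arrays, and the change was 0.56 (SE 0.0677, adjusted p = 0.00546). Its paralogue SGO1 changed by 0.47 and the cohesin-cleaving protease separase, ESPL1, by 0.39, both called. PTTG1, the securin that holds separase inactive, had log2 signals of 7.23 and 7.48 on the hairpin 44 arrays and 7.72 and 7.63 on the hairpin 45 arrays, against 7.38 and 6.93 on the scrambled arrays. Scrambled array 1 overlapped the hairpin 44 arrays, and the change was 0.36 (SE 0.145, adjusted p = 0.152) with a 95% interval of 0.00398 to 0.717. Without scrambled array 1 it was called at 0.59 (adjusted p = 0.0467). Signal for PTTG1 could include transcripts of its near-identical copy PTTG2, which the probe sets were not shown to tell apart.

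Within the chromosomal passenger complex, which corrects faulty attachments, 3 of 4 subunits rose (median 0.50). CDCA8, the targeting subunit borealin, gave 10.73 and 10.65 (hairpin 44) and 11.02 and 11.00 (hairpin 45), against 10.24 and 10.20 (scrambled). The arrays of each group lay within 0.1 of each other, and the change was 0.63 (SE 0.0644, adjusted p = 0.00361) or 1.55-fold. INCENP, the scaffold subunit, stood at 8.95 and 8.92 in hairpin 44 cells and 9.02 and 8.93 in hairpin 45 cells, against 8.81 and 8.70 in scrambled cells. Its change of 0.20 (SE 0.0701, adjusted p = 0.113) was not called, with a 95% interval of 0.0248 to 0.369, although no array overlapped; with an intensity trend it was called (adjusted p = 0.0305). Survivin, BIRC5, was called at 0.55 and the kinase subunit, AURKB, at 0.45.

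Spindle genes rose in 5 of 7 cases (median 0.36). CKAP2L, a spindle microtubule protein, had log2 signals of 10.20 and 10.21 on the hairpin 44 arrays and 10.36 and 10.34 on the hairpin 45 arrays, against 9.94 and 9.79 on the scrambled arrays. Its change was 0.41 (SE 0.0703, adjusted p = 0.0138), and the call was lost without scrambled array 2 (adjusted p = 0.0596), hairpin 44 array 2 (0.0513), hairpin 45 array 1 (0.0519) or hairpin 45 array 2 (0.0507). ASPM, a spindle pole protein, gave 10.31 and 10.26 (hairpin 44) and 10.34 and 10.31 (hairpin 45), against 10.24 and 10.09 (scrambled). ASPM's scrambled arrays were the lowest, yet the change of 0.14 (SE 0.0715, adjusted p = 0.247) was not called, with a 95% interval of -0.0365 to 0.314. HMMR, which helps to organise spindle poles, stood at 9.37 and 9.40 in hairpin 44 cells and 9.71 and 9.66 in hairpin 45 cells, against 9.16 and 9.11 in scrambled cells. Its change was 0.40 (SE 0.0634, adjusted p = 0.0111), lost without scrambled array 2 (adjusted p = 0.0539). TPX2, an activator of AURKA, was called at 0.36, and PRC1, which bundles the central spindle, at 0.29. The PRC1 call was lost under each of the 6 omissions of an array, and NUSAP1, a microtubule bundler, was at 0.15 and not called. DLGAP5, which stabilises kinetochore fibres, gave 9.06 and 8.99 (hairpin 44) and 9.11 and 9.21 (hairpin 45), against 8.80 and 8.65 (scrambled). The change of 0.37 (SE 0.0771, adjusted p = 0.0249) was called with all arrays, and lost without scrambled array 2 and without each single hairpin array (adjusted p = 0.0581 to 0.107).

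Chromosome structure genes rose in 4 of 5 cases (median 0.35). NCAPG, a subunit of condensin I, had log2 signals of 10.84 and 10.80 on the hairpin 44 arrays and 11.09 and 11.03 on the hairpin 45 arrays, against 10.60 and 10.54 on the scrambled arrays. Every hairpin array was above both scrambled arrays, with a change of 0.37 (SE 0.0647, adjusted p = 0.0147) that was lost without scrambled array 2 (adjusted p = 0.0677), either hairpin 44 array (0.056 and 0.05003) or hairpin 45 array 1 (0.0571). NCAPH and NCAPD2, of the same complex, were called at 0.32 and 0.36, and MKI67, the chromosome surface protein used as a proliferation marker, at 0.35. TOP2A, the topoisomerase that untangles sister chromatids, stood at 11.31 and 11.36 in hairpin 44 cells and 11.36 and 11.37 in hairpin 45 cells, against 11.23 and 11.19 in scrambled cells. TOP2A did not pass at 0.14 (SE 0.062, adjusted p = 0.199) and had a 95% interval of -0.0169 to 0.288, but was called with an intensity trend (adjusted p = 0.0158).

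Of the cytokinesis genes 3 of 4 rose (median 0.31). RACGAP1, a subunit of the centralspindlin complex, gave 6.94 and 7.16 (hairpin 44) and 7.24 and 7.47 (hairpin 45), against 6.71 and 6.50 (scrambled). The change was 0.60 (SE 0.114, adjusted p = 0.0186) or 1.52-fold, lost without scrambled array 2 (adjusted p = 0.107), hairpin 44 array 2 (0.0537) or hairpin 45 array 2 (0.0528). ECT2, the exchange factor that activates RhoA at the cell equator, had log2 signals of 10.76 and 10.82 on the hairpin 44 arrays and 10.68 and 10.82 on the hairpin 45 arrays, against 10.57 and 10.44 on the scrambled arrays. It was not called at 0.27 (SE 0.079, adjusted p = 0.0692), but passed with an intensity trend (adjusted p = 0.0027) and without dim probe sets (0.0319). Anillin, ANLN, and the abscission protein CEP55 were called at 0.30 and 0.33. Both partners of the anaphase-promoting complex rose. CDC20, its mitotic activator, stood at 11.81 and 11.80 in hairpin 44 cells and 11.95 and 11.95 in hairpin 45 cells, against 11.35 and 11.32 in scrambled cells. Its arrays were tightly grouped, with a change of 0.54 (SE 0.0604, adjusted p = 0.00458). UBE2C, its ubiquitin-conjugating enzyme, gave 10.59 and 10.47 (hairpin 44) and 10.68 and 10.64 (hairpin 45), against 10.31 and 10.19 (scrambled). The change of 0.34 (SE 0.0742, adjusted p = 0.0277) was lost after quantile normalization (adjusted p = 0.0798), without scrambled array 2 and without each single hairpin array (0.0567 to 0.118).

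The hairpins were also compared one by one, on the same scrambled arrays. With hairpin 44, 10 of 48 members rose and 0 fell, against 4.81% of all genes called higher and 2.84% lower, and the median log2 change was 0.30. With hairpin 45, 35 of 48 rose and 0 fell, against 13% and 7.11% of all genes, and the median was 0.44. The 10 of hairpin 44 were CDK1, PLK1, NEK2, FOXM1, MAD2L1, SPC25, SGO2, AURKB, CDCA8 and CDC20. Both comparisons share the scrambled arrays, so calls made with both hairpins are not independent. Counts by hairpin differed between the models, and fell when any single array was left out. That held also for an array of the other hairpin, which leaves the changes as they are and alters only the estimate of the spread. With an intensity trend, 36 members were called with hairpin 44 and 44 with hairpin 45, against 11.7% and 18.3% of all genes. With hairpin 44, 0 or 1 member was called higher when any single array was left out, and 0.00444% to 1.82% of all genes. With hairpin 45, 9 members were called without hairpin 45 array 2, 10 without hairpin 45 array 1 and 21 without scrambled array 2, against 2.99%, 3.21% and 7.02% of all genes.

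Set directly against each other, hairpin 45 minus hairpin 44, 0 of 48 members were called in limma, against 0.396% of all genes called in either direction. At an unadjusted p under 0.05, 14 were higher with hairpin 45 and 0 lower, against 8.38% of all genes higher, and with an intensity trend 11 were higher, against 4.1%. The median difference was 0.14, and both hairpin 45 arrays lay above both hairpin 44 arrays for 37 members, against 26.9% of all genes. The largest differences were in CCNB1, at 0.37 (SE 0.106, adjusted p = 0.213, 0.0278 with an intensity trend), and NEK2, at 0.32 (SE 0.0822, adjusted p = 0.189, 0.0183 with an intensity trend). For CDC25B, NUSAP1, PRC1 and ECT2 the difference was below 0. ZHX2 itself was lower by 1.14 on the log2 scale with hairpin 44 and by 1.53 with hairpin 45, and these changes did not differ at the threshold (difference -0.39, adjusted p = 0.152).

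With p65 shRNA against control shRNA, all 48 measured members had changes below 0, as had 49.2% of all genes. The median log2 change was -1.60, a fold of 0.33, against 0.00637 over all genes, and 44 of 48 members were at less than 0.5 of control. Both p65 shRNA arrays lay below both control shRNA arrays for 47 of 48 members, as they did for 22.7% of all genes, and RACGAP1 was the exception. In limma without an intensity trend 0 of 48 members were called, as were 0% of all 22499 genes. At an unadjusted p under 0.05, 47 of 48 were lower and 0 higher, against 7.96% of all genes lower. The smallest adjusted p, 0.0735, was shared by 15 members. With an intensity trend 39 of 48 were called lower and 0 higher, against 2.48% and 1.36% of all genes.

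Each omission of an array from the p65 table leaves 1 in its group and fewer to estimate the spread. Calls with an intensity trend were fewest without p65 shRNA array 1, among the members and among all genes. Without it 13 members were called lower, and 0.222% of all genes. Without p65 shRNA array 2, 31 members and 0.711% of all genes were called lower. Without control array 1 these were 44 members and 2.65%, and without control array 2, 37 members and 2.47%. The members' median signal was 5.34 and 5.68 on the p65 shRNA arrays, against 7.12 and 7.38 on the control shRNA arrays. Array 2 read higher than array 1 for 42 members with p65 shRNA and for 47 with control shRNA, 41 of them in both groups. Medians over all probe sets were 1.88 and 1.89 on the p65 shRNA arrays and 1.87 and 1.89 on the control shRNA arrays. How often array 2 read higher was not counted over all genes. What sets these arrays apart was not tested.

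**Figure D2:**
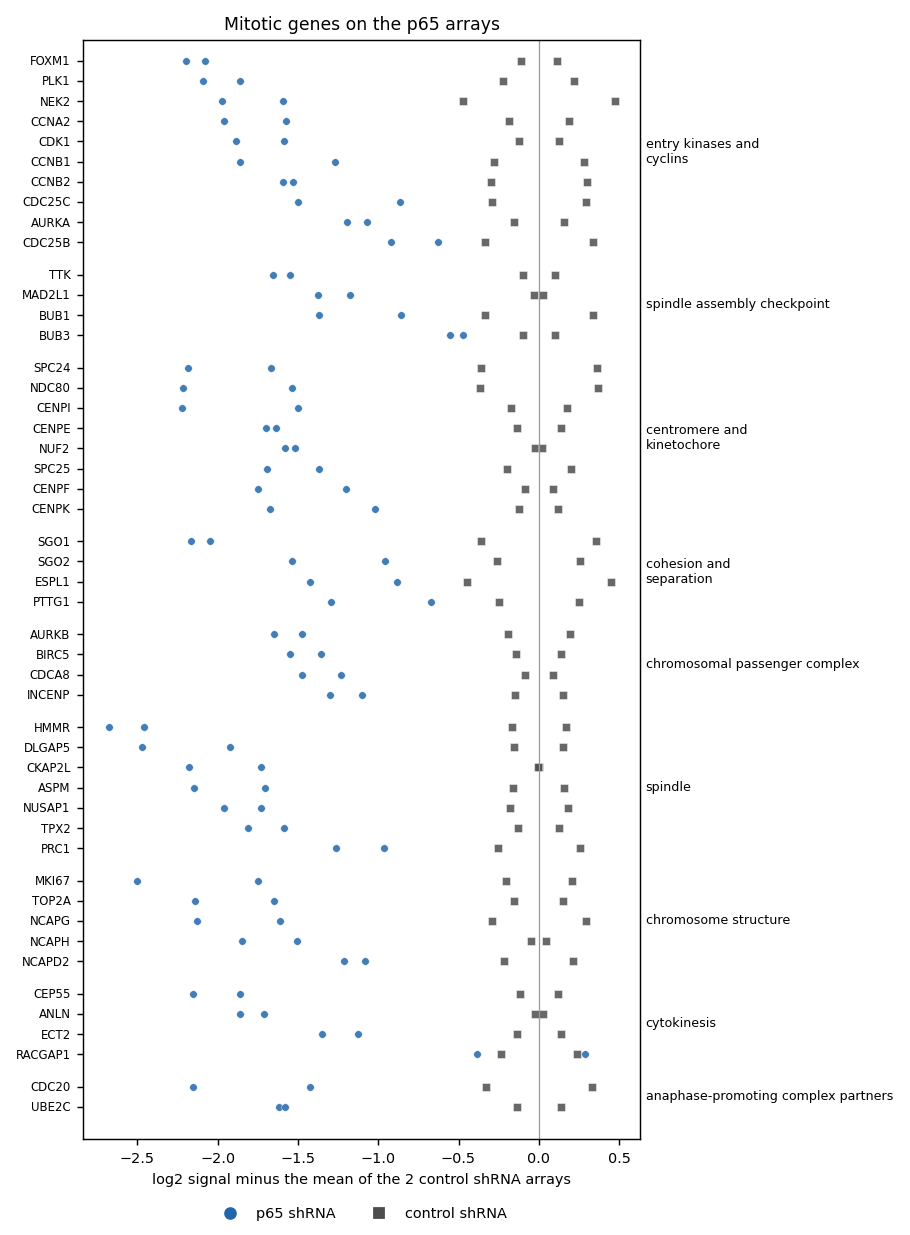
Log2 signal of each of the 48 measured members on each of the 4 p65 arrays, minus the mean of the 2 control shRNA arrays, grouped by role. Points stand for single arrays of p65 shRNA and control shRNA. The p65 shRNA points lie to the left of both control points in 47 of 48 members, with RACGAP1 the exception.

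The lowest members came from several roles. HMMR had log2 signals of 5.22 and 5.44 on the p65 shRNA arrays, against 7.73 and 8.07 on the control shRNA arrays. Its change of -2.57 (SE 0.204, adjusted p = 0.0735, 0.00137 with an intensity trend) was a fold of 0.169, with the groups more than 2 log2 units apart. DLGAP5 gave 4.455 and 5.005 with p65 shRNA, against 6.77 and 7.08 with control shRNA. That was a change of -2.20 (SE 0.251, adjusted p = 0.0735, 0.00333 with an intensity trend). FOXM1 stood at 5.92 and 6.03 in p65 shRNA cells, against 8.00 and 8.23 in control shRNA cells. Its arrays within each group were close, and the change was -2.14 (SE 0.179, adjusted p = 0.0735, 0.00137 with an intensity trend). SGO1, MKI67 and CEP55, at -2.11, -2.13 and -2.01, were the other members at less than 0.25 of control.

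The share of all genes called lower with an intensity trend, 2.48%, stands beside the count of each role below. Of the entry kinases, cyclins and activators, 8 of 10 were called lower with an intensity trend (median -1.65). NEK2 gave 3.50 and 3.89 with p65 shRNA, against 5.01 and 5.95 with control shRNA. Both groups were spread widely, and the change was -1.78 (SE 0.351, adjusted p = 0.135, 0.0267 with an intensity trend). CCNB1 stood at 4.54 and 5.13 in p65 shRNA cells, against 6.12 and 6.67 in control shRNA cells. Its p65 shRNA arrays were also uneven, but lay below both controls, at -1.56 (SE 0.296, adjusted p = 0.124, 0.0185 with an intensity trend). CDK1, CCNA2, CCNB2, PLK1 and AURKA had changes of -1.74, -1.77, -1.56, -1.97 and -1.13, each called with the trend. CDC25B had log2 signals of 6.51 and 6.80 on the p65 shRNA arrays, against 7.09 and 7.76 on the control shRNA arrays. The CDC25B change of -0.77 (SE 0.276, adjusted p = 0.307, 0.117 with an intensity trend) was among the smallest, and CDC25C, at -1.18, was not called either.

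Checkpoint genes were called lower with the trend in 2 of 4 cases (median -1.19). MAD2L1 stood at 5.45 and 5.65 in p65 shRNA cells, against 6.80 and 6.85 in control shRNA cells. The groups were more than 1 log2 unit apart, at -1.28 (SE 0.174, adjusted p = 0.0913, 0.00541 with an intensity trend). TTK gave 4.73 and 4.84 with p65 shRNA, against 6.28 and 6.48 with control shRNA. Its change was -1.60 (SE 0.177, adjusted p = 0.0735, 0.0041 with an intensity trend), while BUB1 and BUB3, at -1.11 and -0.51, were not called. Among centromere and kinetochore genes 7 of 8 were called (median -1.61). SPC25 had log2 signals of 3.84 and 4.16 on the p65 shRNA arrays, against 5.33 and 5.73 on the control shRNA arrays. The groups stood apart, and SPC25 had a change of -1.53 (SE 0.226, adjusted p = 0.0966, 0.0132 with an intensity trend). NUF2 gave 3.90 and 3.83 with p65 shRNA, against 5.39 and 5.44 with control shRNA. With arrays of each group within 0.1 of each other, NUF2 was at -1.55 (SE 0.164, adjusted p = 0.0735, 0.00675 with an intensity trend). NDC80, SPC24, CENPE, CENPF and CENPI were called at -1.88, -1.93, -1.67, -1.48 and -1.86, and CENPK, at -1.35, was not.

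Of the cohesion and separation genes 1 of 4, SGO1, was called with the trend (median -1.20). SGO2 stood at 2.54 and 3.12 in p65 shRNA cells, against 3.82 and 4.33 in control shRNA cells. Its arrays did not overlap, yet the spread left it at -1.24 (SE 0.287, adjusted p = 0.173, 0.0876 with an intensity trend). PTTG1 had log2 signals of 1.41 and 2.03 on the p65 shRNA arrays, against 2.46 and 2.96 on the control shRNA arrays. PTTG1 had a change of -0.99 (SE 0.292, adjusted p = 0.244, 0.187 with an intensity trend) on signals partly below the table's median gene of 2.83, and ESPL1, at -1.15, was not called. All 4 measured passenger complex subunits were called with the trend (median -1.40). CDCA8 gave 5.94 and 6.19 with p65 shRNA, against 7.33 and 7.50 with control shRNA. INCENP stood at 5.51 and 5.71 in p65 shRNA cells, against 6.66 and 6.96 in control shRNA cells. Both sets of arrays were well separated, at -1.35 (SE 0.187, adjusted p = 0.0913, 0.00451 with an intensity trend) for CDCA8 and -1.20 (SE 0.196, adjusted p = 0.107, 0.0101 with an intensity trend) for INCENP. AURKB and BIRC5 had changes of -1.56 and -1.45.

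All 7 spindle genes and all 5 chromosome structure genes were called lower with the trend, with medians of -1.93 and -1.87. CKAP2L had log2 signals of 4.97 and 5.41 on the p65 shRNA arrays, against 7.14 and 7.14 on the control shRNA arrays. ASPM stood at 5.32 and 5.77 in p65 shRNA cells, against 7.31 and 7.63 in control shRNA cells. The changes were -1.95 (SE 0.212, adjusted p = 0.0735, 0.00312 with an intensity trend) for CKAP2L and -1.93 (SE 0.233, adjusted p = 0.0745, 0.00333 with an intensity trend) for ASPM, with no overlap. TPX2, NUSAP1 and PRC1 were at -1.70, -1.85 and -1.12. NCAPG gave 6.35 and 6.87 with p65 shRNA, against 8.19 and 8.78 with control shRNA. TOP2A stood at 7.37 and 7.86 in p65 shRNA cells, against 9.36 and 9.66 in control shRNA cells. Again the groups were apart, at -1.87 (SE 0.289, adjusted p = 0.1, 0.00596 with an intensity trend) for NCAPG and -1.89 (SE 0.24, adjusted p = 0.0807, 0.00312 with an intensity trend) for TOP2A. NCAPH and NCAPD2 were at -1.67 and -1.15.

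Cytokinesis genes were called in 3 of 4 cases (median -1.51). RACGAP1 had log2 signals of 1.95 and 1.28 on the p65 shRNA arrays, against 1.43 and 1.90 on the control shRNA arrays. These arrays overlapped at signals below the median gene's, and the change was -0.05 (SE 0.299, adjusted p = 0.963, 0.969 with an intensity trend). ECT2 gave 7.74 and 7.96 with p65 shRNA, against 8.95 and 9.22 with control shRNA. The change of ECT2 was -1.24 (SE 0.195, adjusted p = 0.1, 0.00442 with an intensity trend), and ANLN, at -1.78, and CEP55 were called as well. CDC20 stood at 6.98 and 7.70 in p65 shRNA cells, against 8.80 and 9.46 in control shRNA cells. UBE2C had log2 signals of 4.69 and 4.73 on the p65 shRNA arrays, against 6.17 and 6.45 on the control shRNA arrays. Both partners of the anaphase-promoting complex were called with the trend, CDC20 at -1.79 (SE 0.34, adjusted p = 0.125, 0.0128 with an intensity trend) and UBE2C at -1.60 (SE 0.183, adjusted p = 0.0735, 0.00451 with an intensity trend).

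The tables share no arrays, so the members' changes can be set side by side, each against its own control. Without regard to a test, 47 of 48 members were higher with the ZHX2 hairpins and lower with p65 shRNA, and CDC25B was below 0 in both. Of all genes, 24.9% were higher with the hairpins and lower with p65 shRNA, and 49.3% were above 0 with the ZHX2 hairpins. With an intensity trend in both fits, 36 of 48 members were called higher over both ZHX2 hairpins and lower with p65 shRNA, as were 1.45% of all genes. BUB1, BUB3, SGO2, ESPL1, RACGAP1 and CENPK passed with the hairpins and not with p65 shRNA, ASPM, NUF2 and NUSAP1 passed with p65 shRNA and not with the hairpins, and CDC25B, CDC25C and PTTG1 passed with neither. The sizes differed in order. MAD2L1, first with the ZHX2 hairpins at 0.79, was at -1.28 with p65 shRNA, whereas HMMR, lowest with p65 shRNA at -2.57, was at 0.40 with the hairpins. TOP2A and ASPM, among the smallest with the hairpins at 0.14 and 0.14, were at -1.89 and -1.93 with p65 shRNA. The difference between the knockdowns was not tested, since the tables were normalized apart.

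**Figure D3:**
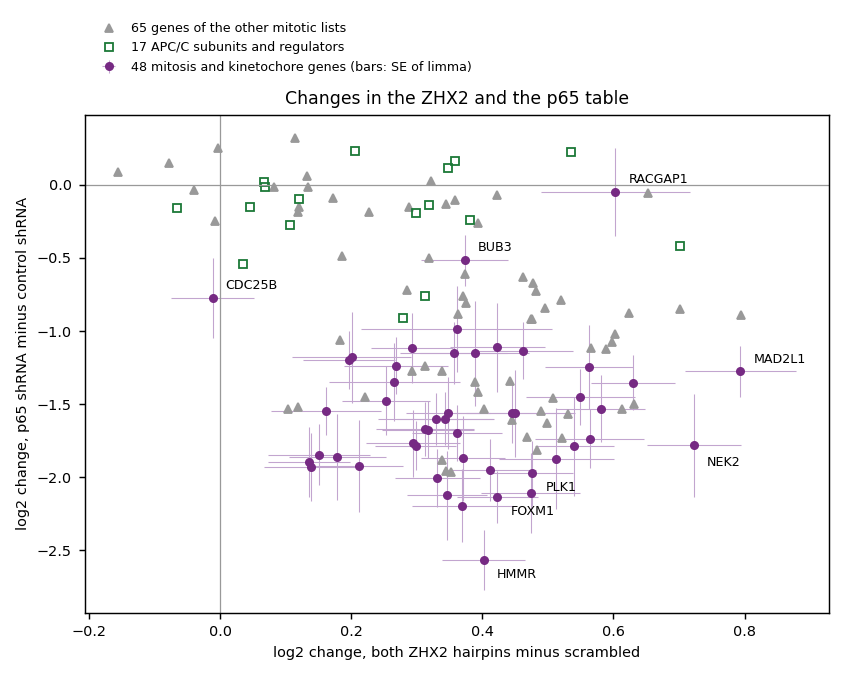
Log2 change over both ZHX2 hairpins minus scrambled (horizontal) against log2 change of p65 shRNA minus control shRNA (vertical), 1 point a gene, with standard errors for the 48 members. Of the members, 47 lie right of 0 and below 0, and the genes of the anaphase-promoting complex have a median of -0.15 on the vertical axis.

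Other genes of the same pathways, 82 measured of 85 listed, were drawn from 5 further lists. With the ZHX2 hairpins 51 rose and 0 fell (median log2 change 0.35), against 11.9% of all genes called higher and 6.41% lower. With p65 shRNA their median was -0.72, and 30 of 82 were called lower with an intensity trend, against 2.48% of all genes. The same shares of all genes stand beside the counts of each list below. Further kinetochore genes rose in 21 of 27 cases with the hairpins (median 0.42), among them MIS18A, which helps to load CENPA, at 0.62 (SE 0.0723, adjusted p = 0.005), and the inner kinetochore gene CENPO at 0.60 (SE 0.0729, adjusted p = 0.0055). With p65 shRNA 11 of 27 were called lower with the trend (median -0.84). Subunits and regulators of the anaphase-promoting complex rose in 8 of 17 cases (median 0.28), led by ANAPC10 at 0.70 (SE 0.0968, adjusted p = 0.00781) and ANAPC13 at 0.54 (SE 0.0791, adjusted p = 0.0094). With p65 shRNA none of these 17 was called, and the median was -0.15, with ANAPC10 at -0.42 and ANAPC13 at 0.22.

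Other condensin and cohesin genes rose in 8 of 14 cases with the hairpins, and 6 of 14 were called lower with p65 shRNA under the trend. The condensin II subunit NCAPD3 was at 0.60 (SE 0.0655, adjusted p = 0.00431) with the hairpins and was called with p65 shRNA at -1.08 (adjusted p = 0.0146 with the trend). Sororin, CDCA5, was at 0.70 (SE 0.0844, adjusted p = 0.00546) with the hairpins and was not called with p65 shRNA, at -0.85 (adjusted p = 0.145 with the trend). Of the MuvB core and MYBL2, 2 of 6 rose. LIN9, a MuvB subunit, was at 0.48 (SE 0.0627, adjusted p = 0.00684) with the hairpins and not called with p65 shRNA, at -0.92 (adjusted p = 0.07 with the trend). MYBL2, which encodes B-MYB, was called at 0.34 (SE 0.0752, adjusted p = 0.0286), a call lost under each of the 6 omissions of an array, and was the one gene of this list called with p65 shRNA under the trend, at -1.96. Of 18 other mitotic kinases and regulators, 12 rose with the hairpins and 12 were called lower with p65 shRNA under the trend. The phosphatase CDC25A was at 0.79 (SE 0.0686, adjusted p = 0.00252) with the hairpins and -0.89 with p65 shRNA, and the histone H3 kinase HASPIN at 0.57 (SE 0.0644, adjusted p = 0.00475) and -1.12, both called with the hairpins and, with the trend, with p65 shRNA.

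**Figure D4:**
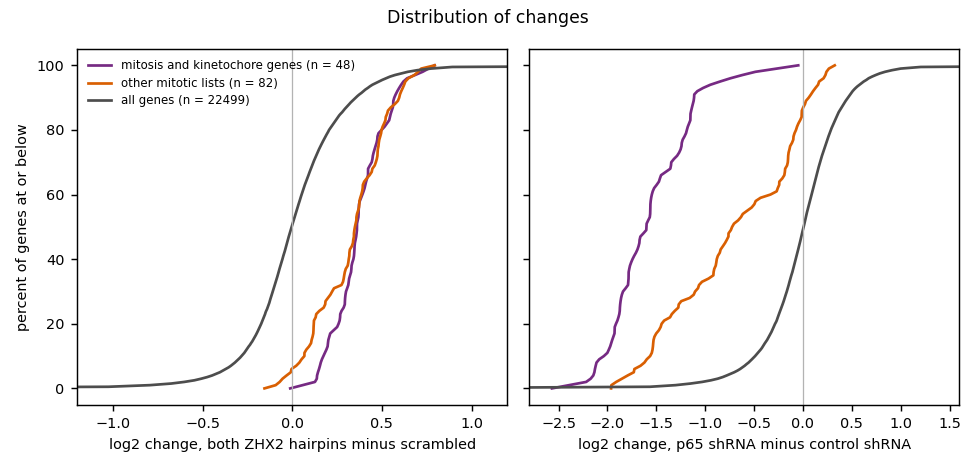
Cumulative share of genes (vertical, percent) at or below a log2 change (horizontal), for both ZHX2 hairpins minus scrambled and for p65 shRNA minus control shRNA. The curve of the 48 members lies right of that of all 22499 genes in the ZHX2 table (median 0.36 against -0.00416) and left of it in the p65 table (-1.60 against 0.00637), and the 82 other mitotic genes have medians of 0.35 and -0.72.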

How the data were processed

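Total RNA of 786-O cells was hybridised to Affymetrix arrays, 10 in 5 groups of 2. Groups were taken from the sample titles. The authors deposited RMA values, per the submitters' processing notes, and these lie on the log2 scale. Neither the software version nor the build is given in the sources used here. Both tables hold 53617 probe sets, with array medians of 6.15 to 6.22 (ZHX2) and 1.87 to 1.89 (p65).

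Probe sets were named from the annotations of both platforms jointly, with symbols updated through RefSeq GRCh38.p14. This named 24622 probe sets with 1 gene, and 1700 with several, 99 with different and 27196 with no gene were left out. The brightest probe set stood for each of 22499 genes, with no filter on low signal. Changes are differences of mean log2 signal. R 4.3.3 with limma 3.58.1 fitted group means with empirical Bayes, on 6 ZHX2 and 4 p65 arrays apart, and p-values were Benjamini-Hochberg adjusted over all genes and called under 0.05. The models were also run on simulated data in which 200 genes had known changes. Values in every array are given for the largest and smallest change over both hairpins in each role, the 3 largest with p65 shRNA, the 2 largest between hairpins and any change below 0 over both hairpins, and of each other list the 2 genes with the smallest p are named. The members, lists and motifs were chosen with earlier results of these data known. Alternatives were an intensity trend, median centring, quantile normalization, a filter at the 40th percentile of signal, averaged probe sets, each platform's own annotation, a replicate block, fits of only the groups compared, and leaving out each array. The number of arrays limits the precision.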

Additional observations from a re-analysis of the deposited data

How the results depend on the processing

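Over both ZHX2 hairpins, 34 members were called higher, and 42 with an intensity trend, 36 with centring, 38 without dim probe sets, 27 with quantile normalization, 27 of 37 tested on the platform's own annotation, 29 with the replicate block, and 9 to 32 without 1 array. The median log2 change of 0.36 moved to 0.40 with centring, 0.27 with quantile normalization and 0.305 to 0.415 without 1 array. For hairpin 44, 10 calls became 36 with an intensity trend, 28 without dim probe sets, 5 with the replicate block, 1 in a fit of only its groups and 0 to 1 without 1 array, and the median of 0.30 became 0.33 with centring, 0.22 with quantile normalization and 0.242 to 0.351 without 1 array. For hairpin 45, 35 calls became 29 with the replicate block and 9 to 34 without 1 array, and the median of 0.44 became 0.49 with centring, 0.31 with quantile normalization and 0.388 to 0.499 without 1 array. Hairpin 45 against hairpin 44 gave 11 calls with an intensity trend, and a median of 0.0909 after quantile normalization. The 0 calls with p65 shRNA became 39 with an intensity trend, and stayed 0 with centring, quantile normalization, averaged probe sets, own annotation, the replicate block, without dim probe sets and without each array, with a median of -1.78 to -1.46 without 1 array. Chosen after seeing the data, the trend with the replicate block gave 46, with quantile normalization 39, and 13 to 44 without 1 array, 13 of them without p65 shRNA array 1. Of all genes, 2670 were called higher and 1443 lower over both hairpins, 3065 and 1133 with centring, and 2116 and 1863 with quantile normalization. The share of all genes called higher over both hairpins was 17.3% with an intensity trend, 20.97% without dim probe sets and 9.67% with the replicate block. For hairpin 44 these shares were 11.7%, 12.1% and 2.08%, and 1.35% in a fit of only its groups. For hairpin 45 the share with the replicate block was 10.9%. On the platform's own annotation, 13.9% of the 14884 genes tested were called higher over both hairpins. With p65 shRNA, 2.48% of all genes were called lower with the trend, 3.77% with the trend and the replicate block, and 2.40% with the trend and quantile normalization. Over all named genes, deviations of same-numbered arrays from their group means correlated at -0.0259 to 0.0547. The main fits did not pair samples by replicate number. Among the members, 41 of 48 read higher on array 2 in both groups of the p65 table, and whether same-numbered arrays belong together was not tested. The cause was not tested beyond what each setting changes by construction.

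Signs turned for uncalled values alone. CDC25B over both hairpins was 0.0307 with centring and -0.0303 to 0.00745 without 1 array, and with hairpin 44 it was -0.0515 with quantile normalization and -0.00175 to 0.0738 without 1 array. Without 1 array, CDC25C with hairpin 44 ran from -0.0262 to 0.151 and PTTG1 from -0.0234 to 0.43. NUSAP1 with hairpin 45 was -0.0191 with quantile normalization. With p65 shRNA and without 1 array, RACGAP1 ran from -0.384 to 0.287, at 0.189 without control array 2, and ZHX2 from -0.186 to 0.0101. Signals gave no detection call, so no gene was called absent.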
